A study of Mus musculus with 8 samples.

Results

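The genes described here are 10 genes that mark dendritic cells (DC), Itgax, Xcr1, Clec9a, Flt3, Zbtb46, Batf3, Irf8, Siglech, Cd209a and Cst3, chosen by name from a table of 52784 mouse genes, of which 25066 had a count in at least 1 library. RNA was sequenced from trafficked maternal cells and from recipient cells of F1 pups aged 1 week, in 8 libraries with 1 library for each cell origin and treatment. The pups were bred from BALB/c males and CD11c-DTR females on the C57BL/6 (B6) background, which carry a diphtheria toxin receptor under the promoter of Itgax, the gene of CD11c. Before intrauterine transplantation (IUT) the dam was given diphtheria toxin (DT, 5 ng per g of body weight; DC-depleted) or saline (DC control) on embryonic day 13.

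Fetuses received 5000000 bone marrow mononuclear cells in the liver on embryonic day 14, from B6 donors in mIUT (maternal donor cells) or from BALB/c donors in pIUT (paternal donor cells). The 4 groups of each origin were uninjected, DC control mIUT, DC control pIUT and DC-depleted pIUT. Uninjected pups came from dams given DT or saline, in proportions that the labels do not give. All dams, controls included, were of the CD11c-DTR strain, and the labels do not say which F1 pups inherited the transgene. Maternal cells were sorted by H2K-b and recipient cells by H2K-d, from mononuclear cells pooled over pups. F1 cells carry both markers, B6 donor cells share H2K-b with the dam, and BALB/c donor cells share H2K-d with the recipient, so residual cells of another origin are possible in a sort. DT was given to the dam before birth, so the libraries do not measure DC at the time of depletion.

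DC take up antigen and present it to T cells. Conventional DC (cDC) form a cDC1 branch, which depends on Batf3 and Irf8 and cross-presents antigen to CD8 T cells, and a cDC2 branch, which serves mainly CD4 T cells. Plasmacytoid DC (pDC) are a separate lineage that makes type I interferon. All of them descend from progenitors that carry the receptor Flt3. In bone marrow, blood and spleen DC are a small part of the mononuclear cells, and in pregnancy DC of the dam take part in how maternal T cells meet fetal antigen.

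The members are of unequal specificity. Xcr1 and Clec9a are the most restricted to cDC1. Itgax is also expressed by some macrophages and NK cells, Flt3 by hematopoietic progenitors, Zbtb46 by endothelial and early erythroid cells, Irf8 by monocytes and B cells, and Cst3 by nearly all tissues. The libraries were not sorted for DC.

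Total estimated counts on genes were between 38543457 and 47965130 per library. Completeness differed more than depth. Of genes with at least 10 CPM (the count scaled by normalized library size, edgeR's unit) in the other 7 libraries, 9.51% had under 1 CPM in the recipient uninjected library and 4.86% in maternal DC control mIUT. In each of the other 6 this share was at most 1.26%, and it was 0% in both recipient pIUT libraries. Y-linked RNA was found in maternal libraries although the dam is female. The summed level of Ddx3y, Uty, Kdm5d and Eif2s3y was 0 CPM in maternal uninjected cells, 118 CPM in maternal DC control mIUT, 29.3 CPM in maternal DC control pIUT and 30.0 CPM in maternal DC-depleted pIUT. The last 3 libraries thus go against a label of maternal cells alone, and since each is the only library of its group, no result on maternal IUT cells can be given without them.

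There was no replicate library, so no difference below has a replicate check and no p-value is given. A member was counted as higher or lower where its level differed at least 2-fold. A count of 3 or fewer was treated as not detectable, which corresponds to between 0.0547 and 0.105 CPM depending on the library. A fold against a library at 0 counts is a lower bound computed against 3 counts in that library. Intervals in brackets after a fold are at the 95% level and cover counting error only, since the reads carry no molecular identifiers.

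Because the toxin receptor of the dam is driven by the Itgax promoter, the 250 bases upstream of the Itgax start are shown, with those of Zbtb46 and Clec9a, the other members with a match upstream of the start to a motif searched. All 10 members were matched in RefSeq's promoter table of GRCm38.p6, and the bases run 5′ to 3′ on the strand of the gene. Capitals mark the matched letters.
Itgax, chr7:128129300-128129549, plus strand: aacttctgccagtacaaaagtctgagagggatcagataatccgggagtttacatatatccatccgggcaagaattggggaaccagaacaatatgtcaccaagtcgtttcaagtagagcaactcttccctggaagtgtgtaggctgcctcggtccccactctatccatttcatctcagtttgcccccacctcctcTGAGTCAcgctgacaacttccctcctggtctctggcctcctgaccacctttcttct
Zbtb46, chr2:181424389-181424638, minus strand: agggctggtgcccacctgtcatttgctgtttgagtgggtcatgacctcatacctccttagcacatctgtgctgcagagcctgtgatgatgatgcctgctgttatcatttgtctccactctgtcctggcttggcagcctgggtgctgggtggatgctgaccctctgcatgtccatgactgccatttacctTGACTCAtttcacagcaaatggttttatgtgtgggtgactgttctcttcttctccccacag
Clec9a, chr6:129408612-129408861, plus strand: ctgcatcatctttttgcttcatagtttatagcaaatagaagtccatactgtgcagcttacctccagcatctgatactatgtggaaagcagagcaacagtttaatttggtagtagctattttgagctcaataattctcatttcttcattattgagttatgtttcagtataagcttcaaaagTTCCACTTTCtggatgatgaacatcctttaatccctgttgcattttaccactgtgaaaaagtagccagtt

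In Itgax and Zbtb46 the capitals mark the AP-1 element TGANTCA, whose first base lay at position -56 and at position -61 from the start. This element was in 7.81% of all 32851 promoters of the table (from 250 bases before to 50 bases after the start, on both strands). In Clec9a the capitals mark the composite ETS-IRF element, searched in both orientations, at position -70. This element was in 5.34% of all promoters and, among the members, also in Cd209a at position -9. The core motif of PU.1, GAGGAAGT, and the interferon response element matched none of the 10 members, and 3.2% and 3.44% of all promoters. The search shows only which letters are in these windows.

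In maternal DC-depleted pIUT against maternal DC control pIUT, the members of trafficked maternal cells did not share a direction. Itgax and Xcr1 were lower, Flt3, Zbtb46, Batf3 and Siglech were higher, Irf8 and Cst3 differed less than 2-fold, and Clec9a and Cd209a had 0 counts in both libraries. Of the 8 members that could be compared, 2 were lower and 4 higher. The background was large, since 36.4% of the 16805 genes compared were at least 2-fold lower and 38.6% at least 2-fold higher. The median log2 fold change of the 8 members was 1.16, beside 0.07 over all genes compared. Fewer cells of a type and less RNA per cell cannot be told apart in such bulk libraries.

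**Figure D1:**
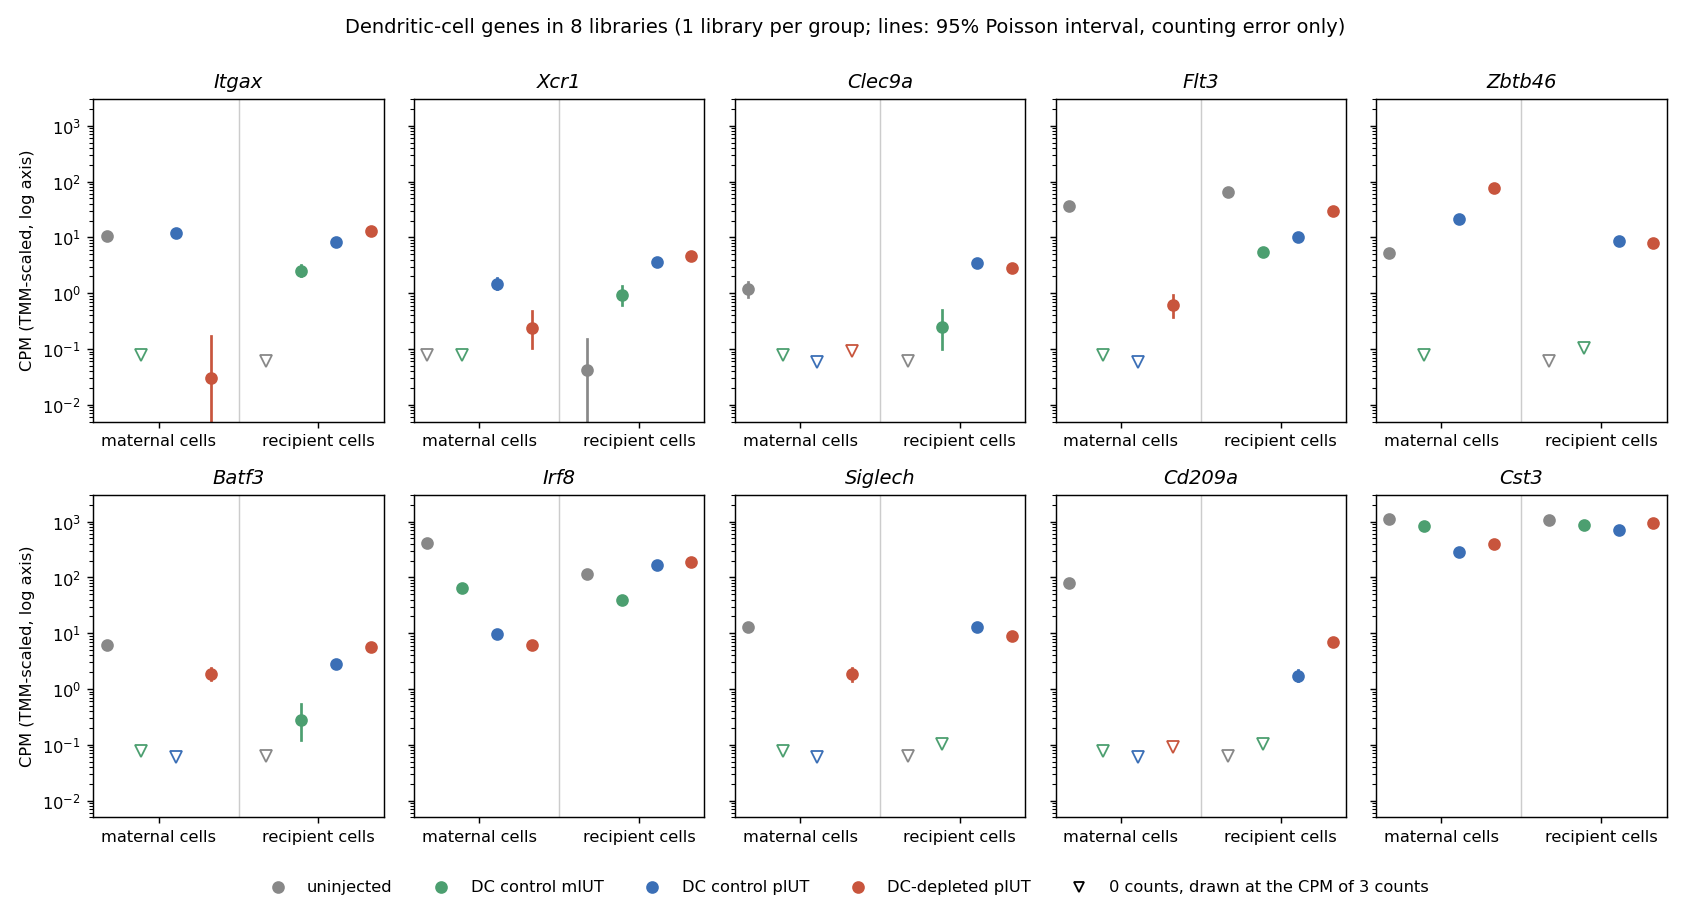
Level of each of the 10 members in CPM (log axis) in the 8 libraries, with maternal cells at the left and recipient cells at the right of each panel. Points are single libraries, lines are 95% Poisson intervals for counting error, and open triangles are libraries at 0 counts, drawn at the CPM of 3 counts. All 10 members had over 3 counts in both recipient pIUT libraries, while 8 were at 0 in maternal DC control mIUT. Of all genes, 14670 and 16231 had at least 10 counts in recipient DC control and DC-depleted pIUT, and 10016 in maternal DC control mIUT.

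Itgax (ENSMUSG00000030789.10, chr7:127728668-127749829 in GRCm39, plus strand) encodes CD11c, the integrin chain that defines the cells removed by DT in this strain. In maternal cells it had 409 counts (10.5 CPM) in uninjected pups, 0 counts in DC control mIUT, 611 counts (12.1 CPM) in DC control pIUT and 1 count (0.0303 CPM) in DC-depleted pIUT. The DC-depleted level was thus below detection, and so was that of DC control mIUT, in which no dam had received DT. The ratio of DC-depleted to DC control pIUT was 0.00251, which rests on 1 count and has a wide counting interval (6.34e-05 to 0.014). With the DC-depleted level set at 3 counts, as for all calls and medians here, the log2 fold change was -7.05. Against the uninjected library the ratio was 0.00288 in DC-depleted pIUT (7.28e-05 to 0.0161) and 1.15 in DC control pIUT (1.01 to 1.31). A fall of this kind was not particular to Itgax. Of the 11307 genes with at least 100 counts in maternal DC control pIUT, 12.0% had 3 counts or fewer in maternal DC-depleted pIUT, a share computed after the values of Itgax were seen.

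Xcr1 (chr9:123681380-123691094, minus strand) encodes the chemokine receptor by which cDC1 meet XCL1-producing T and NK cells. It had 0 counts in maternal uninjected cells and in maternal DC control mIUT, 75 counts (1.48 CPM) in maternal DC control pIUT and 8 counts (0.242 CPM) in maternal DC-depleted pIUT. The level was 6.12-fold lower in DC-depleted than in DC control pIUT (2.95 to 14.7). It was low throughout, and both pIUT libraries were above the uninjected library, by at least 19.2-fold for DC control and at least 3.14-fold for DC-depleted pIUT. Clec9a (chr6:129385825-129401726, plus strand), the receptor by which cDC1 recognise dead cells, had 46 counts (1.18 CPM) in maternal uninjected cells and 0 counts in all 3 maternal IUT libraries. The fall of Clec9a against uninjected pups was at least 15.3-fold after DC control mIUT, 19.9-fold after DC control pIUT and 13-fold after DC-depleted pIUT, each a lower bound. It was therefore already undetectable in DC control pIUT, and depletion could not be read from it.

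Batf3 (chr1:190830044-190841142, plus strand), the transcription factor required for cDC1, went against Xcr1 in the same pair. It had 235 counts (6.04 CPM) in maternal uninjected cells, 0 counts in DC control mIUT, 0 counts in DC control pIUT and 62 counts (1.88 CPM) in DC-depleted pIUT. The DC-depleted level was at least 31.7-fold higher than that of DC control pIUT and 3.22-fold lower than that of uninjected pups (2.42 to 4.33). Irf8 (chr8:121463096-121485659, plus strand), which acts with Batf3 in cDC1 and is also needed by monocytes and pDC, was detected in all 4 maternal libraries. Its counts were 16357 (420 CPM) in uninjected pups, 2487 (64.2 CPM) in DC control mIUT, 496 (9.81 CPM) in DC control pIUT and 201 (6.09 CPM) in DC-depleted pIUT. All IUT libraries were below uninjected pups, by 6.54-fold in DC control mIUT (6.27 to 6.83), 42.9-fold in DC control pIUT (39.2 to 47.0) and 69.1-fold in DC-depleted pIUT (60.1 to 79.8). Between the pIUT libraries the ratio was 0.621 (0.524 to 0.733), which is under a 2-fold difference. With scaling by library size alone, Irf8 passed 2-fold as lower (log2 fold change -1.27).

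Flt3 (chr5:147267551-147337483, minus strand) encodes the receptor of the cytokine FLT3L, on which the development of DC depends. It had 1437 counts (36.9 CPM) in maternal uninjected cells, 0 counts in both DC control IUT libraries and 20 counts (0.606 CPM) in DC-depleted pIUT. The uninjected library stood far above the other 3. The small level in DC-depleted pIUT was at least 10.2-fold above DC control pIUT and 61.0-fold below uninjected pups (39.3 to 100).

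Zbtb46 (chr2:181012111-181104879, minus strand), a transcription factor that separates cDC from other myeloid cells, was the only member whose highest level of all 8 libraries lay in maternal DC-depleted pIUT. Its maternal counts were 208 (5.34 CPM) in uninjected pups, 0 in DC control mIUT, 1063 (21 CPM) in DC control pIUT and 2527 (76.5 CPM) in DC-depleted pIUT. The order was the reverse of that of Irf8 among the uninjected and pIUT libraries. Zbtb46 was 3.64-fold higher in DC-depleted than in DC control pIUT (3.39 to 3.92), and 14.3-fold higher than in uninjected pups (12.4 to 16.6). The summed level of 10 erythroid markers, among them Gata1, Klf1 and the adult globins, was 100808 CPM in maternal DC control pIUT and 147197 CPM in maternal DC-depleted pIUT, with no marker at 0 in either. Globins made up most of these sums. Of the markers of earlier erythroid cells, Gata1 was 3.44-fold higher (3.33 to 3.54) and Epor 4.29-fold higher (4.09 to 4.51) in the maternal pair, and Klf1 was 1.65-fold higher (1.61 to 1.68). The erythroid sum was 67998 CPM in maternal uninjected cells and 15178 CPM in maternal DC control mIUT. In recipient cells it was 92693 CPM in uninjected pups and 190 CPM in DC control mIUT. It was 29522 CPM in recipient DC control pIUT and 19539 CPM in recipient DC-depleted pIUT. Zbtb46 had 0 counts in recipient uninjected cells and in DC control mIUT of both origins. The part of erythroid RNA in the level of Zbtb46 was not tested.

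Siglech (chr7:55417926-55429195, plus strand), a surface lectin of pDC and of some macrophages, had 511 counts (13.1 CPM) in maternal uninjected cells, 0 counts in DC control mIUT, 0 counts in DC control pIUT and 61 counts (1.85 CPM) in DC-depleted pIUT. The DC-depleted level was at least 31.1-fold above that of DC control pIUT, and it was 7.11-fold below that of uninjected pups (5.44 to 9.43). Flt3, Batf3 and Siglech thus had the same pattern, with 0 counts in maternal DC control pIUT and a low level in maternal DC-depleted pIUT. Genes of that pattern were common, as 7.45% of the 8958 genes with at least 100 counts in maternal DC-depleted pIUT had 3 counts or fewer in maternal DC control pIUT, although none of these 3 members reached 100 counts.

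Cd209a (chr8:3793397-3798984, minus strand), a C-type lectin of monocyte-derived DC and cDC2, was found in maternal cells of uninjected pups only. It had 3127 counts (80.4 CPM) there and 0 counts in each maternal IUT library, and its level was lower by at least 1037-fold after DC control mIUT, 1355-fold after DC control pIUT and 884-fold after DC-depleted pIUT. Cst3 (chr2:148713635-148717887, minus strand), a secreted inhibitor of cysteine proteases that DC express strongly, was high in all libraries. Its maternal counts were 44167 (1135 CPM) in uninjected pups, 32193 (831 CPM) in DC control mIUT, 14511 (287 CPM) in DC control pIUT and 13018 (394 CPM) in DC-depleted pIUT. The ratio of DC-depleted to DC control pIUT was 1.37 (1.34 to 1.41), but its direction turned with scaling by library size alone (log2 fold change -0.12).

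Across the maternal libraries the members followed more than 1 pattern. Clec9a, Flt3, Batf3, Irf8, Siglech and Cd209a had their highest maternal level in uninjected pups and were at least 2-fold lower in all IUT groups. Cst3 was also highest there, but the difference from DC control mIUT was under 2-fold. Itgax was at a like level in uninjected pups and DC control pIUT, and below detection in the other maternal libraries. Over 3 counts were found for 9 members in uninjected pups, 2 in DC control mIUT (Irf8 and Cst3), 5 in DC control pIUT and, after DC depletion, 7. Of all genes, 13068, 10016, 13009 and 13266 had at least 10 counts in the same order of groups. Against the uninjected library, which these comparisons share, 7 members were lower and 2 higher in DC control pIUT, where 33.7% of all genes compared were lower and 33.3% higher. In DC-depleted pIUT 8 were lower and 2 higher, beside 34.7% and 35.3% of all genes. In DC control mIUT 8 of 9 were lower and 0 higher, beside 44.0% and 26.5%. Summed markers of other cells differed in both directions. The 9 MHC class II genes summed to 38850 CPM in maternal uninjected cells and to between 118 and 435 CPM in the maternal IUT libraries, and 9 B-cell markers to 7140 CPM and to between 31.0 and 342 CPM. Hepatocyte markers went the other way, with 52.8 CPM in uninjected pups and 4465, 169 and 590 CPM in DC control mIUT, DC control pIUT and DC-depleted pIUT. Neutrophil markers, at 2380 CPM in uninjected pups, summed to 163230, 1771 and 10819 CPM in the same order and so went both ways. Their part in the levels of the members was not tested.

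**Figure D2:**
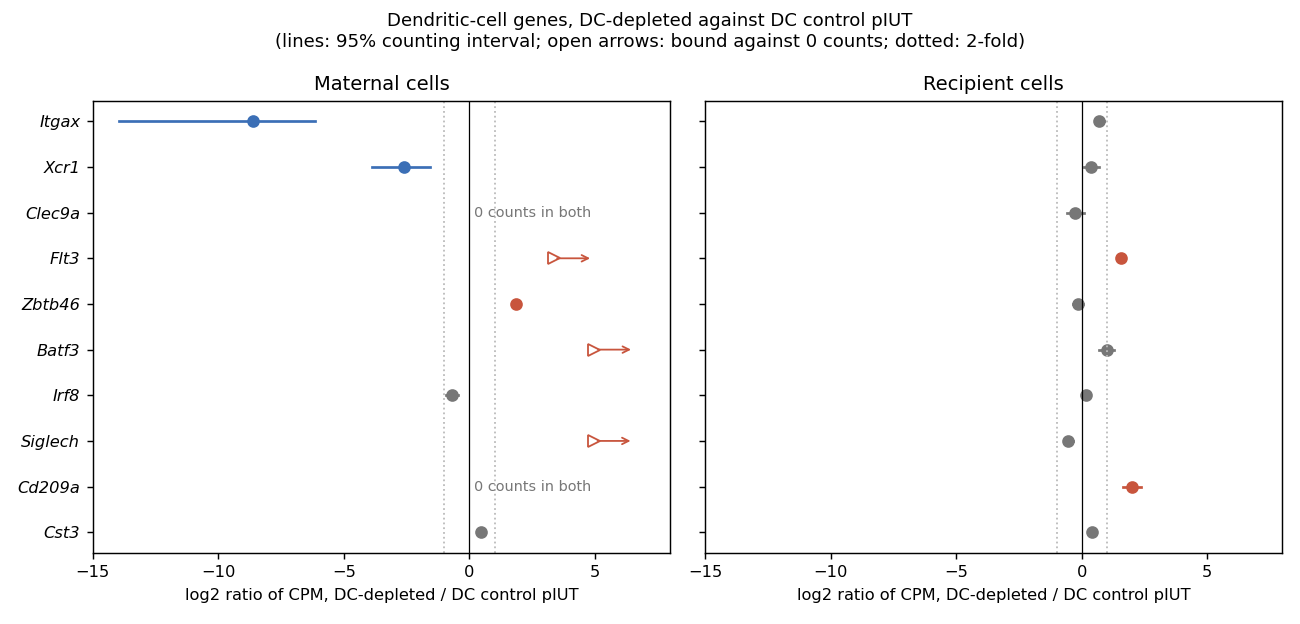
Log2 ratio of CPM of each member in DC-depleted against DC control pIUT, in maternal cells (left) and recipient cells (right), with 95% counting intervals as lines. Open triangles with an arrow are lower bounds for members at 0 counts in DC control pIUT, and dotted lines mark 2-fold. Maternal members spread from far lower (Itgax) to at least 31.7-fold higher (Batf3), and recipient members stayed between 0.691 and 4.01 times the control level.

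In recipient cells Itgax and Xcr1 were not lower in the same comparison. Flt3 and Cd209a were at least 2-fold higher in DC-depleted than in DC control pIUT, 0 members were lower, and 8 differed less than 2-fold. Over all 18999 genes compared, 14.9% were lower and 24.1% higher, so that 2 of 10 members higher is close to the background. The median log2 fold change was 0.40 over the members and 0.12 over all genes. All 10 members had over 3 counts in both libraries.

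The genes of the CD11c chain and of cDC1 stood as follows. Itgax had 0 counts in recipient uninjected cells, 73 counts (2.55 CPM) in DC control mIUT, 367 counts (8.13 CPM) in DC control pIUT and 722 counts (13.2 CPM) in DC-depleted pIUT. The DC-depleted level was 1.62-fold that of DC control pIUT (1.43 to 1.84). Xcr1 had the same order, with 2 counts (0.0414 CPM), 27 counts (0.942 CPM), 163 counts (3.61 CPM) and 259 counts (4.72 CPM), and a ratio of 1.31 between the pIUT libraries (1.07 to 1.6). Both genes had their highest level of all 8 libraries in recipient DC-depleted pIUT, except that Itgax was highest in maternal DC control pIUT with DESeq2 size factors. Clec9a had 0 counts in uninjected pups, 7 counts (0.244 CPM) in DC control mIUT, 155 counts (3.43 CPM) in DC control pIUT and 158 counts (2.88 CPM) in DC-depleted pIUT. Its ratio of 0.84 had a counting interval that includes 1 (0.669 to 1.06).

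Batf3 had 0 counts in recipient uninjected cells, 8 counts (0.279 CPM) in DC control mIUT, 128 counts (2.83 CPM) in DC control pIUT and 310 counts (5.66 CPM) in DC-depleted pIUT. Its ratio of 2.00 (1.62 to 2.47) lay just under the 2-fold limit before rounding, and it passed that limit with DESeq2 size factors and with scaling by library size alone. Irf8 had 5512 counts (114 CPM), 1112 counts (38.8 CPM), 7661 counts (170 CPM) and 10553 counts (193 CPM) in the same order of groups, and a ratio of 1.13 between the pIUT libraries (1.10 to 1.17). The cDC1 members of recipient cells therefore differed from each other by less than in maternal cells, with ratios between 0.84 and 2.00.

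Flt3 was the only one of the 10 members with its own highest level of all 8 libraries in recipient uninjected cells. It had 3144 counts (65.0 CPM) in uninjected pups, 157 counts (5.47 CPM) in DC control mIUT, 451 counts (9.99 CPM) in DC control pIUT and 1619 counts (29.5 CPM) in DC-depleted pIUT. It was 2.96-fold higher in DC-depleted than in DC control pIUT (2.66 to 3.29), and in both it was below uninjected pups, 6.51-fold in DC control pIUT (5.9 to 7.2) and 2.2-fold in DC-depleted pIUT (2.07 to 2.34), the latter being under 2-fold with scaling by library size alone. Among the 10 hematopoietic progenitor markers, which share the tissue distribution of Flt3 in part, 8 were higher and 0 lower in the same pair, and their sum was 249 CPM in DC control and 554 CPM in DC-depleted pIUT, with Mecom at 0 in DC control. Their part in the level of Flt3 was not tested.

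Zbtb46 had 0 counts in recipient uninjected cells and in DC control mIUT, 393 counts (8.70 CPM) in DC control pIUT and 436 counts (7.95 CPM) in DC-depleted pIUT. The ratio of 0.914 had an interval that includes 1 (0.796 to 1.05), in contrast to the 3.64-fold higher level in maternal cells. Siglech likewise had 0 counts in uninjected pups and in DC control mIUT, with 591 counts (13.1 CPM) in DC control pIUT and 496 counts (9.05 CPM) in DC-depleted pIUT. With a ratio of 0.691 (0.612 to 0.78) it was the lowest of the members in this pair. Cd209a had 0 counts in uninjected pups and in DC control mIUT, 78 counts (1.73 CPM) in DC control pIUT and 380 counts (6.93 CPM) in DC-depleted pIUT. This difference of 4.01-fold (3.14 to 5.19) was the largest among the recipient members. Cst3 had 50981 counts (1054 CPM), 25442 counts (887 CPM), 32241 counts (714 CPM) and 52414 counts (956 CPM) in the same order of groups, with a ratio of 1.34 between the pIUT libraries (1.32 to 1.36).

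In contrast to maternal cells, most members were lowest in the recipient uninjected library and higher after pIUT. The number of members at 0 counts was 6 for uninjected pups, 3 for DC control mIUT and 0 for both pIUT libraries. Against the uninjected library, 7 members were higher and 1 lower (Flt3) in DC control pIUT, where 52.2% of all genes compared were higher and 20.2% lower. In DC-depleted pIUT 7 were higher and 1 lower (Flt3), beside 53.1% and 18.2% of all genes. In DC control mIUT 4 of 7 were higher and 2 lower (Flt3 and Irf8), beside 53.5% and 24.6%. The median log2 fold change of all genes was itself 1.13, 1.23 and 1.26 in these comparisons, and the recipient uninjected library was the least complete of the 8. Of the genes with at least 100 counts in recipient DC control pIUT, 28.2% had 3 counts or fewer in the uninjected library, and so had 31.3% of those with at least 100 counts in recipient DC-depleted pIUT. Members at 0 counts there are therefore in the company of many genes. For DC control and DC-depleted pIUT, Itgax was at least 131-fold and 212-fold higher, Siglech at least 211-fold and 146-fold, and Zbtb46 at least 140-fold and 128-fold.

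Levels of the members were also ordered per kilobase of exon, which allows genes to be compared within a library. Cst3 was the highest of the 10 in all 8 libraries, at between 159 and 628 CPM per kb. Irf8 came next in recipient cells of all groups, with 3.99 to 19.8 CPM per kb. In maternal cells the next gene differed by group. It was Cd209a in uninjected pups (50.8 CPM per kb), Irf8 in DC control mIUT (6.61 CPM per kb), Itgax in DC control pIUT (2.49 CPM per kb) and Zbtb46 in DC-depleted pIUT (4.68 CPM per kb). The cDC1 receptors Xcr1 and Clec9a stayed at or below 1.06 CPM per kb in every library.

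The wider DC programs were followed in 6 lists of 73 genes in all, the members included. In maternal cells 57 of the 73 could be compared between the pIUT libraries, of which 25 were lower and 21 higher (median log2 fold change -0.57, beside 0.07 over all genes), and over all genes 36.4% were lower and 38.6% higher. Without the 10 members, 23 of 49 were lower and 17 higher. In recipient cells all 73 could be compared, with 5 lower and 17 higher (median 0.42, beside 0.12), and over all genes 14.9% were lower and 24.1% higher. The counts of single lists below are read against the same shares of all genes. In maternal cells each of the 6 lists held genes in both directions, and the cDC2 list had the largest share of lower genes, 7 of 8.

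**Figure D3:**
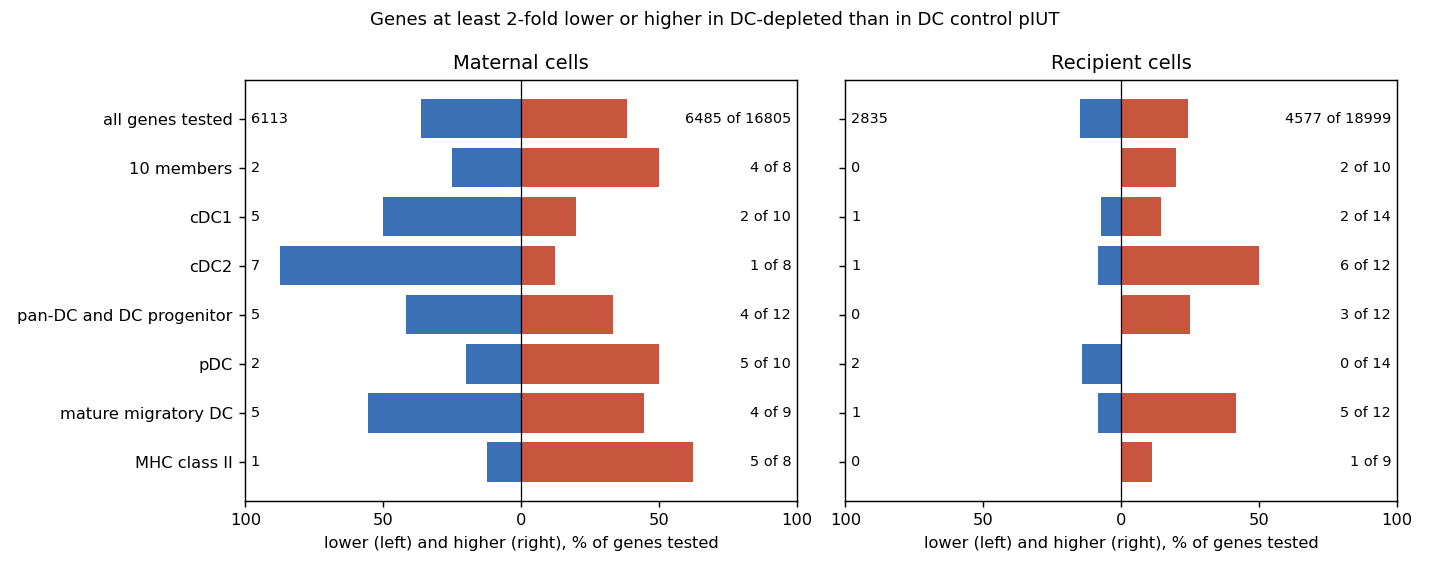
Share of genes at least 2-fold lower (blue, left) or higher (red, right) in DC-depleted than in DC control pIUT, in percent of the genes compared, for all genes, the 10 members and 6 lists of DC genes, with the number of genes printed at each bar. In maternal cells the cDC2 list had 7 of 8 genes lower, and in recipient cells 6 of its 12 genes were higher.

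In maternal cells the cDC1 list had 5 genes lower and 2 higher of 10 (median log2 fold change -1.64). Nfil3, a transcription factor of early cDC1 commitment, had 3647 counts in DC control pIUT and 0 counts in DC-depleted pIUT, at least 794-fold lower. Cadm1, an adhesion molecule of cDC1, had 2595 and 21 counts, a ratio of 0.0124 (0.00766 to 0.019). Naaa, a lysosomal amidase, was higher beside Batf3, with 0 and 54 counts (at least 27.6-fold). The cDC2 list had a median of -3.75. The adhesion molecule Esam had 327 counts and 0 counts (at least 71.2-fold lower) and the lectin Clec10a had 235 counts and 0 counts (at least 51.1-fold lower), while Mgl2, a lectin closely related to Clec10a, had 0 and 132 counts (at least 67.4-fold higher). Clec10a and Mgl2 are close copies of each other, and how reads were divided between them is uncertain.

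Of the 12 genes of the pan-DC and DC progenitor list, 5 were lower and 4 higher in maternal cells (median -0.26). Csf2rb, the common chain of the GM-CSF receptor, had 2896 counts in DC control and 23 in DC-depleted pIUT, a ratio of 0.0122 (0.0077 to 0.0183). Flt3l, the ligand of Flt3, was 4.57-fold higher (3.72 to 5.64), with 125 and 373 counts. Dpp4, a peptidase on cDC1 and T cells, had 0 and 92 counts (at least 47.0-fold higher). Among pDC genes 2 were lower and 5 higher of 10 (median 0.72), a split that became 4 and 4 with scaling by library size alone. The summed level of the pDC list went the other way, at 193 CPM in DC control and 106 CPM in DC-depleted pIUT. Siglech and Ccr9, the gut-homing receptor of pDC (36 and 307 counts, 13.1-fold higher, 9.23 to 19.0), went against Tcf4, the transcription factor that defines pDC, which had 5830 and 91 counts and a ratio of 0.0239 (0.0192 to 0.0294). Pacsin1 had 299 and 0 counts, at least 65.1-fold lower. Of 11 T-cell markers compared in the maternal pair 6 were higher and 1 lower, and their part in the level of Ccr9 was not tested.

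The mature migratory list was split, with 5 lower and 4 higher of 9 (median -1.88). The inhibitory ligand Cd274 (PD-L1) had 2969 counts in maternal DC control pIUT and none after DC depletion (0 counts, at least 646-fold lower), and the costimulatory ligand Cd80 had 673 and 0 counts (at least 146-fold lower). Cd40, the receptor of T-cell help, had 0 and 210 counts (at least 107-fold higher) and Cd83 had 0 and 186 counts (at least 95-fold higher). The MHC class II list had 1 gene lower and 5 higher of 8 (median 2.13). Its abundant member Cd74, the invariant chain, was the lower gene, with 3519 and 825 counts and a ratio of 0.359 (0.333 to 0.388), whereas the peptide-loading genes H2-DMb1 (0 and 76 counts, at least 38.8-fold) and H2-Ob (0 and 47 counts, at least 24.0-fold) were among the higher. Summed over the list, the level was 118 CPM in DC control and 146 CPM in DC-depleted pIUT.

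In recipient cells the cDC2 list had 6 genes higher and 1 lower of 12 (median 0.98). Mgl2 had 77 counts in DC control and 1669 in DC-depleted pIUT, 17.9-fold higher (14.2 to 22.7), and Cd209a came next at 4.01-fold. Itgam, the CD11b chain, was lower, with a ratio of 0.369 (0.355 to 0.383). The cDC1 list had 2 higher and 1 lower of 14 (median 0.29), or 4 and 0 with scaling by library size alone. Wdfy4, which cDC1 need for cross-presentation, was 4.02-fold higher (3.58 to 4.53) and Cadm1 2.75-fold higher (2.48 to 3.05), while the chemokine Cxcl9 had a ratio of 0.438 (0.321 to 0.592). For Cadm1 the direction was thus opposite in the maternal and recipient pairs, a difference that was not tested.

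The pan-DC and DC progenitor list had 3 higher and 0 lower of 12 in recipient cells (median 0.31). The receptors Kit at 11.5-fold (10.4 to 12.9) and Csf1r at 3.19-fold (3.09 to 3.29) stood beside Flt3. Kit is also 1 of the hematopoietic progenitor markers, and Csf1r 1 of the monocyte and macrophage markers, so both genes are counted in 2 lists. The pDC list was the only one of the 6 with a median below 0 in recipient cells (-0.48), with 0 higher and 2 lower of 14. These were Ccr9, with a ratio of 0.254 (0.24 to 0.268), and Ly6d, a marker of early lymphoid and pDC precursors, with a ratio of 0.321 (0.307 to 0.336). Siglech, at 0.691, was on the same side. Like Siglech, the other genes of the list differed less than 2-fold, among them Tcf4 at 1.35 and Bst2 at 0.911. All 12 T-cell markers were lower in the same pair, and their part in the levels of Ccr9 and Ly6d was not tested. The mature migratory list had 5 higher and 1 lower of 12 (median 0.69). The costimulatory ligand Cd86 was 4.92-fold higher (4.44 to 5.46). Il12b, a subunit of interleukin 12, had 0 and 21 counts (at least 5.77-fold higher), and Cd274 was the lower gene, with a ratio of 0.193 (0.171 to 0.217). Of 9 MHC class II genes 1 was higher and 0 lower (median 0.42). This was Ciita, the transactivator of the others, at 8.02-fold (4.99 to 13.6).

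**Figure D4:**
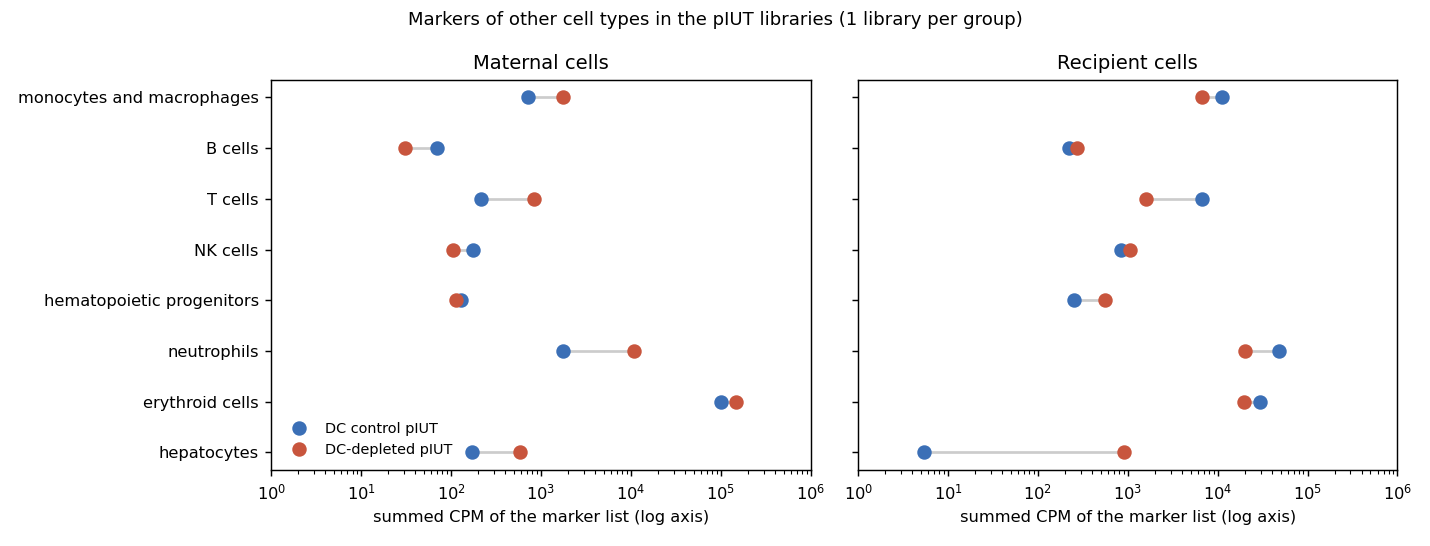
Summed CPM (log axis) of the marker lists of 8 other cell types in DC control pIUT (blue) and DC-depleted pIUT (red), in maternal cells (left) and recipient cells (right), with 1 library per point. In maternal cells the neutrophil sum was 1771 CPM in DC control and 10819 CPM in DC-depleted pIUT, and the hepatocyte sum of recipient cells was 5.42 and 896 CPM.

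Markers of other cells in the sorts also differed between the pIUT libraries, and their part in the levels of the members was not tested. In maternal cells, 10 of 16 monocyte and macrophage markers were higher and 3 lower (summed level 725 and 1770 CPM in DC control and DC-depleted pIUT, with Mertk, Vsig4, Ccr2 and Spic at 0 in DC control). For neutrophils 7 of 10 were higher and 2 lower, with Elane at 0 in DC control and Csf3r at 0 in DC-depleted pIUT. For T cells 6 of 11 were higher and 1 lower (217 and 831 CPM, Cd4 at 0 in both). For B cells 1 of 5 was higher and 3 lower (70.2 and 31.0 CPM, with Pax5, Blk, Fcer2a and Cr2 at 0 in both), and for NK cells 2 of 6 were higher and 2 lower (175 and 104 CPM, with Ncr1, Eomes, Prf1 and Klra8 at 0 in both). Hepatocyte markers were higher in 6 of 9 and lower in 0 (169 and 590 CPM, with Fga and Apob at 0 in DC control), erythroid markers higher in 3 and lower in 2 of 10, and progenitor markers higher in 3 and lower in 4 of 8 (130 and 113 CPM, with Gata2 and Mecom at 0 in both). Hbegf, the mouse counterpart of the primate gene that encodes the DT receptor, whose own product binds DT poorly, had 1650 and 99 counts, and 1700016L21Rik, the locus after which the transgenic line is named, had 0 counts in both.

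In recipient cells, 14 of 16 monocyte and macrophage markers were higher and 1 lower, although their sum was 11215 CPM in DC control and 6636 CPM in DC-depleted pIUT. All 12 T-cell markers were lower (6671 and 1592 CPM), and 7 of 10 neutrophil markers were lower and 2 higher (47494 and 19974 CPM). For B cells 4 of 8 were higher and 0 lower (219 and 271 CPM, with Pax5 and Fcer2a at 0 in DC control and Cr2 at 0 in both), for NK cells 1 of 10 was higher and 0 lower (838 and 1048 CPM, Klra8 at 0 in DC-depleted pIUT), and for erythroid cells 5 of 10 were higher and 0 lower (29522 and 19539 CPM). All 9 hepatocyte markers were higher in DC-depleted pIUT, and Alb, Serpina1a, Fgb, Fga and Apob were at 0 in DC control. Of the Y-linked genes 2 of 4 were lower and 0 higher (57.3 and 26 CPM), against 1 lower and 0 higher of 3 in maternal cells. Hbegf had 25 and 230 counts, 7.58-fold higher (5.01 to 12).

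Over the 8 libraries, the genes whose log2(CPM + 1) was most like that of Itgax were not DC genes. Among 12628 genes with at least 20 counts in at least 4 libraries, Pearson's r was 0.999 for Arhgef10l, 0.989 for Ift80, 0.987 for Adcy3, 0.985 for Zfp125 and 0.978 for Ikbke. Arhgef10l had 380, 0, 641 and 0 counts in maternal cells and 0, 75, 326 and 745 in recipient cells, in the order uninjected, DC control mIUT, DC control pIUT and DC-depleted pIUT. Of the members, Xcr1 had the highest value (0.676), followed by Siglech (0.593), Batf3 (0.551), Irf8 (0.35), Zbtb46 (0.305) and Flt3 (0.228), and Cst3 was at -0.045. Clec9a and Cd209a had too few libraries with counts to be included. These values rest on 8 points that share library, depth and completeness, and a search of this size finds high values readily, so that they are given as a description.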

How the data were processed

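The authors deposited salmon's estimated counts for each gene, without normalization, from an nf-core workflow on GRCm39 and GENCODE M26. The study's methods call the counter featureCounts. The labels list bcl2fastq and StringTie, with no versions. Libraries were pooled over pups, with 1 per group. All 8 columns were mapped to samples, and 0 columns were left out.

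Counts were rounded to whole numbers and scaled by TMM factors from edgeR 4.0.16 in R 4.3.3, over all 8 libraries. Log2 fold changes came from edgeR (exact test, dispersion 0.4 as in the study), and no p-value was used. Genes with more than 3 counts in at least 1 library of a pair were compared. In medians and calls, genes at 3 counts or fewer in 1 library were set to the bound against 3 counts. Ratios are of CPM, with exact binomial intervals, and levels have exact Poisson intervals. The calculation was tested on simulated data. Gene positions and exon lengths came from GENCODE M39, which matched 97.99% of the gene identifiers. Promoters came from RefSeq (GRCm38.p6). Other software was Python 3.11.15 with scipy 1.17.1, pandas 2.3.3, numpy 2.4.6 and matplotlib 3.10.9.

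The members and lists were chosen with earlier results of these data known. Named were the 10 members, the 2 highest and 2 lowest called genes of each DC list and pair with more than 20 counts in at least 1 library, and the 5 genes most like Itgax. Lists were written for cDC1, cDC2, pan-DC and DC progenitor, pDC, mature migratory DC, MHC class II, B cells, T cells, NK cells, monocytes and macrophages, neutrophils, erythroid cells, hematopoietic progenitors, hepatocytes, Y-linked and transgene-related genes. Of their symbols, 2 were not matched. Alternatives were DESeq2 1.42.0 size factors, library size alone, other count filters, floors, prior counts and fold limits. Clonotype tables were not used here.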

Additional observations from a re-analysis of the deposited data

Results flagged for a closer look

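Of the 10 members, 4 lay on opposite sides of the control level in maternal and recipient cells, with counting intervals that leave out a ratio of 1 in both origins, when DC-depleted pIUT was set against DC control pIUT. These differences between origins were not tested, since each group has 1 library. The share of all genes that lay on opposite sides was not computed. In the maternal pair 36.4% of all genes compared were at least 2-fold lower and 38.6% at least 2-fold higher. In the recipient pair these shares were 14.9% and 24.1%. Itgax was 0.00251 times the control level in maternal cells (6.34e-05 to 0.014), a ratio on 1 count, which is below detection. In recipient cells Itgax was 1.62 times the control level. Xcr1 was 0.163 and 1.31 times the control level. Irf8 was 0.621 and 1.13 times, under 2-fold in both. Siglech was at least 31.1 times the control level in maternal cells, where DC control pIUT had 0 counts, and 0.691 times in recipient cells. Zbtb46 also lay on opposite sides, at 3.64 times the control level in maternal and 0.914 times in recipient cells, but its recipient interval includes 1 (0.796 to 1.05).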

How the results depend on the processing

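No paired analysis was run, and no result comes from a test. The labels give no replicate numbers. A model of treatment with origin as a block could be fitted but was left out by choice, since it takes maternal and recipient cells as replicates of a treatment. No replicate could be left out. All 6 maternal calls kept their direction with DESeq2 size factors, library size alone and other count filters, floors and prior counts, and 5 passed 4-fold (all but Zbtb46). The bounds depend on the floor. With a floor of 10 counts, the log2 fold change was -5.32 for Itgax (in place of -7.05), 1.62 for Flt3 (3.35), 3.25 for Batf3 (4.98) and 3.22 for Siglech (4.96). Library size alone added Irf8. Both recipient calls were kept in the same settings, DESeq2 and library size added Batf3, and at 4-fold the number of members higher was 1 in place of 2. The DC lists of recipient cells had 1 gene lower and 8 higher at 4-fold, in place of 5 and 17. With library size alone, members lower in recipient DC-depleted pIUT than in uninjected pups were 0 in place of 1 (Flt3). At 4-fold, 3 maternal pDC genes were higher in place of 5. The library of the highest level also depended on scaling. With library size, 2 members were highest in maternal uninjected cells (in place of 5), 2 in recipient DC control pIUT (in place of 1) and 4 in recipient DC-depleted pIUT (in place of 2). With DESeq2 size factors, 1 was highest in maternal DC control pIUT (in place of 0) and 1 in recipient DC-depleted pIUT (in place of 2). With 250 bases upstream only, 1 member held the ETS-IRF element in place of 2. The median of all genes in the maternal pair was 0.07 on the log2 scale, -0.05 with DESeq2 and -0.48 with library size, and in the recipient pair 0.12, 0.15 and 0.35. Counts under about 100, as for Xcr1, Clec9a, Flt3, Batf3 and Siglech in maternal pIUT, limit what depth can show.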

Other observations

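The paralogs of Cd209a, chosen after its values were seen, were found in partly different libraries. In maternal cells of uninjected pups Cd209d had 342 counts and Cd209e 151, beside 3127 for Cd209a, and all 3 had 0 counts in the maternal IUT libraries. Cd209f and Cd209g had 0 counts in maternal uninjected cells and 353 and 44 counts in maternal DC-depleted pIUT, the maternal library in which Cd209f was found. In recipient cells Cd209f had 69 counts in DC control and 1005 in DC-depleted pIUT, Cd209a had 78 and 380, Cd209d 24 and 51, Cd209g 22 and 52, and Cd209e 41 and 7. The genes are close copies of each other, and how the counting divided reads among them is uncertain. Exons of Clec9a share up to 184 bases with Clec1b on the same strand in the annotation. On the opposite strand they share up to 2538 bases with Clec1a. Exons of Batf3, Flt3, Xcr1 and Zbtb46 also overlap genes on the opposite strand. Reads from the shared bases were not told apart here. Whether the counting used strand is not given in the sources used here.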
